A study of Mus musculus with 28 samples.

Results

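The genes described here are 5 matrix metalloproteinases (Mmp2, Mmp9, Mmp10, Mmp13 and Mmp14) and 3 of their tissue inhibitors (Timp1, Timp2 and Timp3), followed through the differentiation of C2C12 cells. They were chosen by gene symbol, and all 8 were found among the 49089 genes of the count table. C2C12 is 1 immortalised line of mouse myoblasts, here wild type, whose cells stop dividing and fuse into myotubes when serum is lowered. RNA was sequenced in 18 libraries, 3 in each of 6 groups. One group was kept in growth medium (GM, with 20% fetal bovine serum), and the others were taken 12, 24, 48, 60 and 96 h after a change at near confluence to differentiation medium with 3% horse serum. Open chromatin (ATAC-seq, 2 libraries per condition) and chromosome contacts (Hi-C, 3 libraries per condition) were measured in GM and at 60 h. The labels call the replicates biological without describing separate cultures, so p-values here speak of the spread among these libraries alone, and that spread may be technical. Serum was changed at the start of the time course, so time and serum cannot be told apart in a comparison with GM.

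Matrix metalloproteinases are zinc enzymes that cut collagens, laminins and other proteins of the extracellular matrix, and they are made as inactive proenzymes. Tissue inhibitors of metalloproteinases (TIMPs) bind the active site of the mature enzymes. Mmp14, which is anchored in the cell membrane, activates pro-Mmp2 on the cell surface, and Timp2 serves as the bridge that holds pro-Mmp2 to Mmp14. In muscle these enzymes are known for remodelling the basement membrane around myofibres and for helping myoblasts to migrate and fuse.

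Total counts ran from 24.2 to 36.4 M per library (M stands for 10 to the power 6). Of the 8 genes, 6 passed the filter on low counts and were tested among 15303 genes, while Mmp9 and Mmp13 did not pass. The labelled cell type was checked with 8 skeletal muscle markers, all of which were tested. Their summed level was 688 to 719 CPM (counts scaled to 1 M) in GM and 5694 to 6255 CPM at 96 h. Of the 8, 7 were called higher at 96 h than in GM, against 34.8% of all tested genes, with Myf5 alone lower. Summed macrophage markers lay between 2.45 and 2.60 CPM in GM and between 0.914 and 1.28 CPM at 96 h, with 1 of 7 table entries tested (Cd68) and Adgre1 at 0 in all libraries. Summed endothelial markers never passed 0.367 CPM in a library, and none of the 5 was tested. Adipocyte markers summed to 17.2 to 20.2 CPM in GM and 5.91 to 7.09 CPM at 96 h, with Pparg as the 1 tested gene of 6. Fibroblast markers summed to 11.5 to 14.3 CPM in GM and 10.0 to 11.3 CPM at 96 h, with 3 of 5 tested and Thy1 at 0. Most of that sum was Pdgfra, which was called lower than GM at all 5 times (12.5 CPM in GM, 9.60 CPM at 96 h). Dpt went the other way and was called higher at all 5 times, from a mean of 0.0349 CPM in GM to 1.10 CPM at 24 h, where Mmp2, Mmp14 and Mmp10 also rose, and 0.383 CPM at 96 h. Pi16, the remaining tested marker, was called higher than GM at 24 h alone, its mean having moved from 0.245 to 0.590 CPM. At that time 2 of the 3 tested markers were therefore higher and 1 lower. Lum, not tested, was at 0 in GM and at 12 h and at 0.0912 to 0.164 CPM later. The part of such cells in the results on the members was not tested. In these bulk samples, fewer cells of a type and less RNA per cell cannot be told apart.

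In the RefSeq annotation of GRCm38.p6 (the mm10 build of the files), Mmp13 (chromosome 9, 7272514 to 7283333) and Mmp10 (chromosome 9, 7502342 to 7510242) belong to a cluster of 10 Mmp genes that spans 427.1 kb. Mmp14 lies on chromosome 14 (54431598 to 54442456), Mmp2 on chromosome 8 (92827290 to 92853421) and Mmp9 on chromosome 2 (164940326 to 164955850). Timp2 lies on chromosome 11 (118301061 to 118355411, minus strand). Timp1 (chromosome X, 20870166 to 20874737) sits inside the gene Syn1, and Timp3 (chromosome 10, 86300412 to 86349505) inside Syn3. The libraries were strand-specific per the labels, but the sources used here do not give the strand setting of the counting. The mean level of Syn1 was 3.06 CPM in GM and 1.15 to 1.89 CPM later, and that of Syn3 was 0.110 to 0.248 CPM in all groups. Whether reads of these genes entered the counts of the 2 inhibitors was not tested. Timp2 overlaps Cep295nl, and Mmp2 overlaps the long noncoding RNA Gm45472.

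The 250 bases before the gene start were read from RefSeq for the 6 genes with an entry (all but Mmp2 and Mmp9) and searched on both strands for 3 motifs. These were the AP-1 motif TGANTCA, bound by Fos and Jun dimers, the PEA3 motif AGGAAG, bound by ETS factors, and the E-box CANNTG, bound by myogenic factors such as MyoD. The sequences of 4 genes are shown, since Mmp10 and Mmp13 were the members with an AP-1 match, and Timp2 and Timp1 are the inhibitors with the largest rise and the largest fall at 96 h against GM. All are written 5′ to 3′ and end at the base before the start, with AP-1 and PEA3 matches in capitals. Their intervals are chr9:7502092-7502341 (plus strand), chr9:7272264-7272513 (plus strand), chrX:20869916-20870165 (plus strand) and chr11:118355412-118355661 (minus strand), in the order printed.
Mmp10: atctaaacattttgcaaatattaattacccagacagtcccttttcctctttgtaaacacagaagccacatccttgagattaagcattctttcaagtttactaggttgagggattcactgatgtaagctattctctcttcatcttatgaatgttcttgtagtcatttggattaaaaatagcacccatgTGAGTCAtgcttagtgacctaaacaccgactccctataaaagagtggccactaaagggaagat
Mmp13: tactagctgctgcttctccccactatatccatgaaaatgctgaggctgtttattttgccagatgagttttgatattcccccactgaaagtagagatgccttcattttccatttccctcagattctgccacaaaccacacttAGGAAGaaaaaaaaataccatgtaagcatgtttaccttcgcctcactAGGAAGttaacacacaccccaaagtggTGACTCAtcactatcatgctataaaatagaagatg
Timp1: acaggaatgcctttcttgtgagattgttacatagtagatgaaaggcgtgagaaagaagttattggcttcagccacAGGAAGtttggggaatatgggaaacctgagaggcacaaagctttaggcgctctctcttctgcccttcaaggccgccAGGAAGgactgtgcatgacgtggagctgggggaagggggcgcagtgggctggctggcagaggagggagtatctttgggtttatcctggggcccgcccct
Timp2: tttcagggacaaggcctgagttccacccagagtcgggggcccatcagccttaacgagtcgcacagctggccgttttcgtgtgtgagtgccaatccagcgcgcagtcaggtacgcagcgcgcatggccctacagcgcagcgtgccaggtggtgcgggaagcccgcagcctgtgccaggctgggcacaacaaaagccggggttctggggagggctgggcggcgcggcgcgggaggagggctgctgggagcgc

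The AP-1 match of Mmp10, TGAGTCA, covers positions -63 to -57 counted from the gene start, and an E-box match at -67 to -62 overlaps it. The match of Mmp13, TGACTCA, covers -35 to -29, with PEA3 matches at -109 to -104 and -62 to -57. An AP-1 match was found in 2 of 6 members and in 6.87% of 27025 promoters of the same length. PEA3 matches were found in 4 of 6 members (Mmp13, Mmp14, Timp1 and Timp3) against 29.2% of promoters, and E-box matches in 5 of 6 (all but Timp1) against 66.0%. The GC content was 37.2% for Mmp10, 40.4% for Mmp13, 54.4% for Timp1 and 68.0% for Timp2, beside a median of 52.0% over all promoters. A match describes the letters and does not show that a factor binds there.

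Levels below are CPM after scaling between libraries with edgeR's TMM method, with the SD over 3 libraries. They are not corrected for transcript length, so levels were not compared between genes. A log2 fold change is given ± its standard error (SE) in the fit, and a gene was called at a Benjamini-Hochberg adjusted p under 0.05 in edgeR's quasi-likelihood test over all 15303 genes. All 6 tested members were called in the test of any difference from GM, as were 86% of all tested genes.

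**Figure D1:**
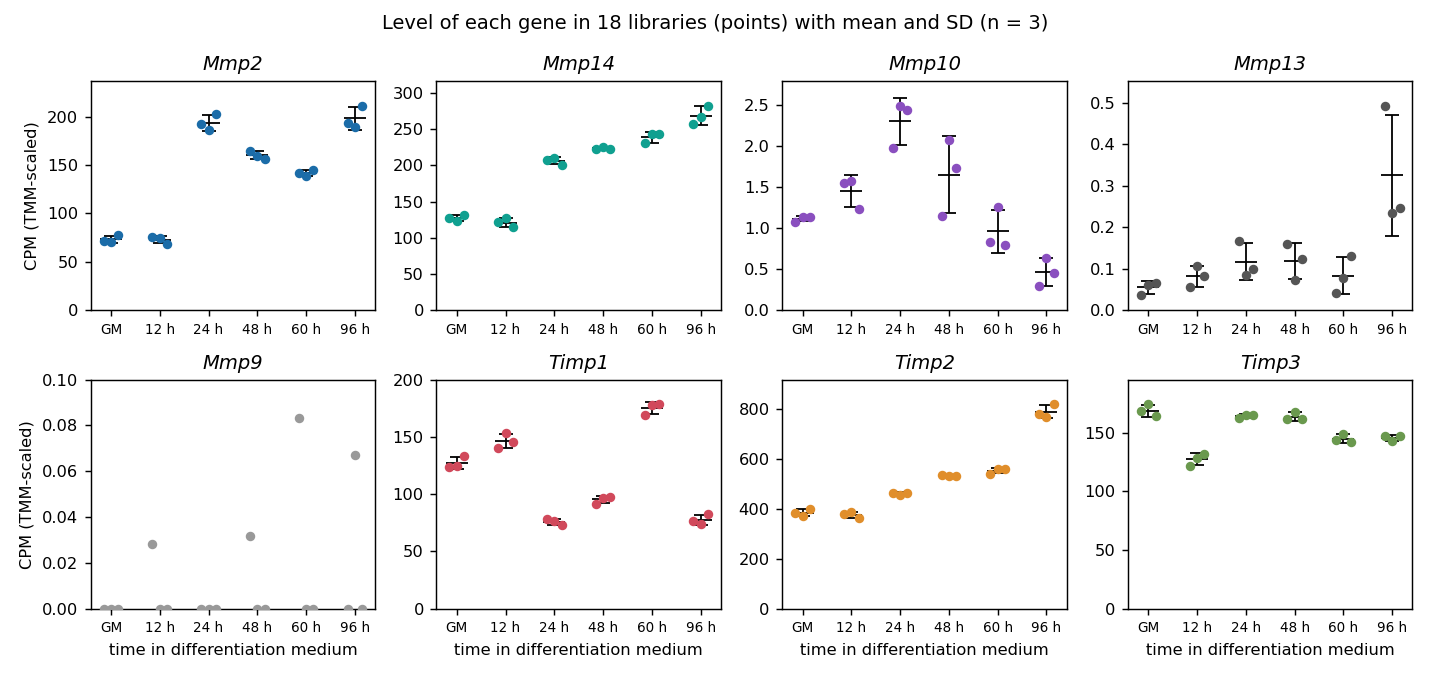
Level of each of the 8 genes in CPM (linear axis, a scale of its own in each panel) by time in differentiation medium. Points are libraries, bars the mean and SD of 3 libraries, with no bar for Mmp9, which had counts in 4 of 18 libraries. Mmp2 and Mmp14 stepped up between 12 and 24 h, Timp2 was highest at 96 h, and Timp1 fell, rose and fell again.

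Mmp14, the membrane-type enzyme that activates pro-Mmp2, held its level for 12 h and then rose. Its levels were 127, 123 and 131 CPM in GM and 121, 127 and 114 CPM at 12 h, and these libraries overlapped. They stood at 207, 210 and 201 CPM after 24 h, 223, 226 and 223 after 48 h, 230, 244 and 243 after 60 h, and 257, 267 and 283 after 96 h. From 24 h on, all libraries of each time lay above those of the time before. Against GM the log2 fold change was -0.07 ± 0.05 at 12 h (adjusted p = 0.226) and 0.70 ± 0.05 at 24 h (adjusted p = 2.59e-11), and it reached 1.08 ± 0.05 at 96 h (2.11-fold, adjusted p = 5.45e-15). The steps from 24 to 48 h (0.12 ± 0.05, adjusted p = 0.0503) and from 48 to 60 h (0.09 ± 0.05, adjusted p = 0.134) did not pass the test. The step from 60 to 96 h passed (0.17 ± 0.05, adjusted p = 0.00407), but not with a covariate for transcripts that stood apart in the third 24 h library (0.24, adjusted p = 0.0875).

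Mmp2, the gelatinase that cuts denatured collagen and basement membrane collagen IV, rose in the same interval as Mmp14 but did not hold its level. It stood at 71.6, 70.2 and 77.3 CPM in GM and at 75.5, 74.1 and 68.5 CPM at 12 h, with overlapping libraries and a log2 fold change of -0.01 ± 0.05 (adjusted p = 0.944). At 24 h it stood at 192, 186 and 202 CPM, a rise of 1.41 ± 0.05 over GM on the log2 scale (2.65-fold, adjusted p = 1.85e-15). At 48 h it had come down to 165, 159 and 157 CPM and at 60 h to 142, 139 and 145 CPM. The libraries of neighbouring times did not overlap in either step. The fall from 24 to 48 h was -0.27 ± 0.05 on the log2 scale (adjusted p = 0.000273). The fall from 48 to 60 h was -0.17 ± 0.05 (adjusted p = 0.015), and it missed the threshold without the second 60 h library (-0.16, adjusted p = 0.0627) and with the covariate (-0.11, adjusted p = 0.239). At 96 h Mmp2 was back at 194, 189 and 212 CPM, 2.72-fold over GM (log2 fold change 1.44 ± 0.05, adjusted p = 2.81e-16).

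Mmp10, the secreted protease stromelysin-2, was present at a low level of 9 to 88 reads per library and went up and then down. Its levels were 1.07, 1.13 and 1.13 CPM in GM, 1.55, 1.58 and 1.23 at 12 h and 1.97, 2.49 and 2.44 CPM at 24 h. They then were 1.14, 2.08 and 1.73 at 48 h, 0.831, 1.26 and 0.789 at 60 h and 0.296, 0.639 and 0.457 CPM at 96 h. The 24 h libraries lay above and the 96 h libraries below all GM libraries, and the 60 h libraries overlapped those of GM. Against GM it was higher at 24 h (log2 fold change 1.05 ± 0.23, adjusted p = 0.000534) and lower at 96 h (-1.26 ± 0.30, adjusted p = 0.00077). Its highest mean, at 24 h, was 4.96 times its lowest, at 96 h.

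The smaller steps of Mmp10 depended on single libraries. The change at 48 h against GM was 0.56 ± 0.25 (adjusted p = 0.052), and it was 0.78 without the first 48 h library (adjusted p = 0.00991) and 0.33 without the second (adjusted p = 0.297). The rise from 12 to 24 h (0.67 ± 0.22, adjusted p = 0.0137) did not pass without the third 12 h library (adjusted p = 0.0611) or the second 24 h library (adjusted p = 0.0551). The fall from 48 to 60 h, where libraries overlapped (-0.77 ± 0.26, adjusted p = 0.0287), did not pass without the second or the third 48 h library (adjusted p = 0.145 and 0.0665) or the first or the third 60 h library (adjusted p = 0.0958 and 0.133). The fall from 60 to 96 h (-1.04 ± 0.31, adjusted p = 0.00838) did not pass without the second 60 h library (adjusted p = 0.0644) or the first 96 h library (adjusted p = 0.0617). With the covariate these 3 called steps kept about their size, at 0.69, -0.79 and -0.99 in the order given, and did not pass (adjusted p = 0.0556, 0.102 and 0.22).

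Mmp13, a collagenase that cuts fibrillar collagen, had 71 reads in all and at least 1 in each library. The 3 libraries of a group together held 5 reads in GM, 9 at 12 h, 11 at 24 h, 10 at 48 h, 7 at 60 h and 29 at 96 h. The 96 h libraries had 15, 7 and 7 reads, more than any other library of the series. Scaled to depth, the reads at 96 h were 5.88 times those in GM, with an exact 95% interval of 2.25 to 19.5 that covers counting error only. Mmp9, the second gelatinase, had 6 reads in 4 of 18 libraries and no more than 2 in one. It had no read in GM, which allows up to 0.0334 CPM over that group (3 reads), or at 24 h, which allows up to 0.0314 CPM, so no change was detectable at this depth.

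Timp2, the inhibitor that bridges Mmp14 and pro-Mmp2, rose stepwise to about 2 times its starting level. It had 383, 370 and 400 CPM in GM, 378, 385 and 362 at 12 h, 461, 453 and 464 at 24 h, 533, 532 and 532 at 48 h, 539, 560 and 556 at 60 h and 777, 767 and 817 CPM at 96 h. From 24 h on, the libraries of each time lay above all those of the time before. The log2 fold change against GM was -0.04 ± 0.04 at 12 h (adjusted p = 0.528), 0.26 ± 0.04 at 24 h (adjusted p = 9.05e-06) and 1.03 ± 0.04 at 96 h (2.05-fold, adjusted p = 7.85e-16). The step from 48 to 60 h did not pass the test (0.05 ± 0.04, adjusted p = 0.357), and the step from 60 to 96 h was the largest (0.51 ± 0.04, adjusted p = 6.21e-10).

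Timp1, a secreted inhibitor that binds the proenzyme of Mmp9, rose by 12 h, fell by 24 h, rose again to 60 h and fell by 96 h. Its levels were 124, 125 and 133 CPM in GM, 141, 153 and 145 at 12 h and 78.6, 76.5 and 73.4 CPM at 24 h. They were 91.7, 96.7 and 98.0 at 48 h, 169, 178 and 179 at 60 h and 76.5, 74.1 and 82.8 CPM at 96 h. No 2 neighbouring times overlapped, and no later time overlapped GM. The steps were 0.20 ± 0.05 from GM to 12 h (adjusted p = 0.00249), -0.94 ± 0.05 to 24 h (adjusted p = 5.67e-13), 0.33 ± 0.05 to 48 h (adjusted p = 2.88e-05), 0.88 ± 0.05 to 60 h (adjusted p = 7.23e-11) and -1.17 ± 0.05 to 96 h (adjusted p = 3.55e-14), all on the log2 scale. With the covariate, the first of them no longer passed (0.13, adjusted p = 0.29). The 24 h and 96 h libraries overlapped each other, 1.67-fold and 1.64-fold below GM.

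Timp3, which binds to the matrix and also inhibits ADAM proteases, had the smallest range of the 6 tested genes, 1.32-fold between its highest and lowest mean. It had 168, 174 and 164 CPM in GM, 122, 129 and 132 at 12 h and 162, 165 and 165 CPM at 24 h. It then had 161, 168 and 161 at 48 h, 144, 149 and 142 at 60 h and 147, 143 and 147 CPM at 96 h. The 12, 60 and 96 h libraries lay below all GM libraries, and those of 24 and 48 h overlapped them. Against GM the log2 fold change was -0.40 ± 0.04 at 12 h (adjusted p = 1.25e-07), -0.04 ± 0.04 at both 24 and 48 h (adjusted p = 0.407 and 0.347), -0.22 ± 0.04 at 60 h (adjusted p = 6.36e-05) and -0.21 ± 0.04 at 96 h (adjusted p = 8.28e-05). At 12 h it was the 1 member called lower.

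**Figure D2:**
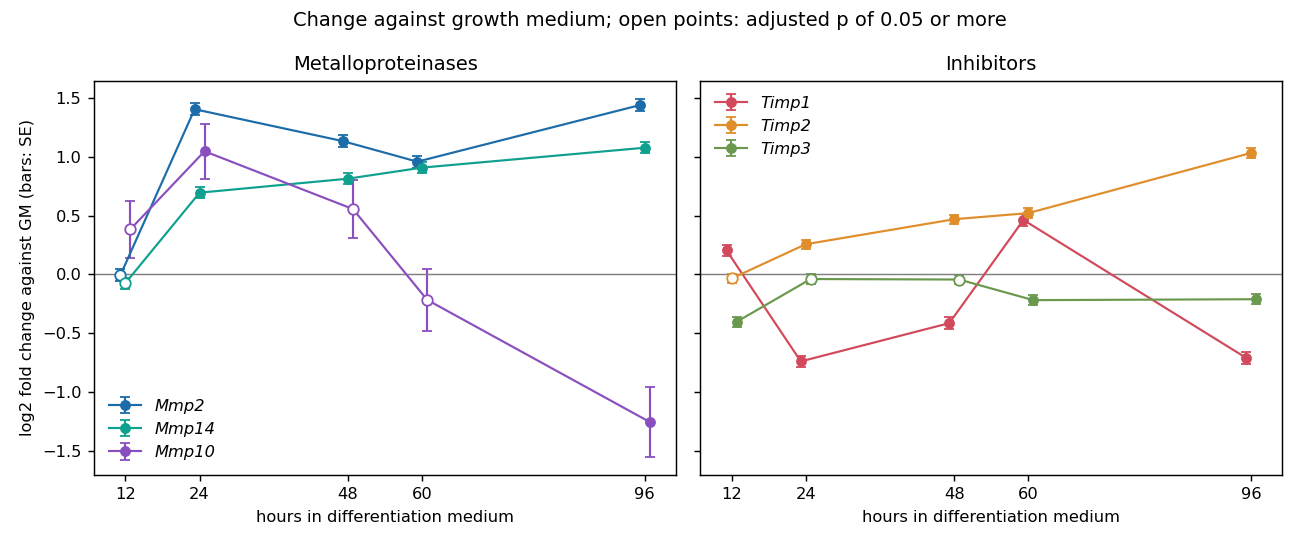
Log2 fold change of the 6 tested genes against GM at each time (points, with SE bars from edgeR), enzymes on the left and inhibitors on the right. Open points have an adjusted p of 0.05 or more. Mmp2 and Mmp14 leave 0 at 24 h, Mmp10 goes from 1.05 at 24 h to -1.26 at 96 h, and Timp1 crosses 0 repeatedly while Timp2 climbs to 1.03.

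Counted by time, 2 of the 6 tested members were called against GM at 12 h, near the share of all tested genes, and all 6 at 96 h. The share of all tested genes was also higher at 96 h than at 12 h. At 12 h, 1 member was called higher (Timp1) and 1 lower (Timp3), where 35% of all tested genes were called, 17.8% higher and 17.2% lower. At 24 h, 4 were higher (Mmp2, Mmp10, Mmp14 and Timp2) and 1 lower (Timp1), against 60.8% of all genes, 30.2% higher and 30.6% lower. At 48 h, 3 were higher (Mmp2, Mmp14 and Timp2) and 1 lower (Timp1), against 65.4%, 32.5% higher and 32.8% lower. At 60 h, 4 were higher (Mmp2, Mmp14, Timp1 and Timp2) and 1 lower (Timp3), against 65.3%, 33.1% higher and 32.2% lower. At 96 h, 3 were higher (Mmp2, Mmp14 and Timp2) and 3 lower (Mmp10, Timp1 and Timp3), against 68.8%, 34.8% higher and 34.1% lower. These 5 comparisons share the GM libraries.

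Between neighbouring times, the step from 12 to 24 h moved the most members, with 5 higher and Timp1 lower, where 54.3% of all tested genes were called, 27.8% higher and 26.5% lower. That share of all genes was also the largest of these steps. From 24 to 48 h, Timp1 and Timp2 rose and Mmp2 fell, against 32.3% of genes, 17.5% higher and 14.8% lower. From 48 to 60 h, Timp1 rose and Mmp2, Mmp10 and Timp3 fell, against 27.2% of genes, 15.8% higher and 11.3% lower. From 60 to 96 h, Mmp2, Mmp14 and Timp2 rose and Mmp10 and Timp1 fell, against 47.2% of genes, 22.6% higher and 24.6% lower. With 6 members tested, these counts are a description.

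The balance of Mmp2 and Mmp14 against Timp2 was followed as a ratio of read counts within each library, which does not depend on the scaling between libraries. Mmp2 had 19.0 ± 0.332 reads per 100 Timp2 reads in GM, 19.4 ± 0.543 at 12 h, 42.2 ± 1.34 at 24 h, 30.1 ± 0.731 at 48 h, 25.8 ± 0.857 at 60 h and 25.2 ± 0.631 at 96 h (SD, n = 3). All libraries from 24 h on lay above those of GM (exact permutation test of the log2 ratio, two-sided, p = 0.1 at each time, the smallest that 3 against 3 libraries allow), while those of 12 h overlapped GM (exact p = 0.5). Mmp14 had 33.1 ± 0.256 reads per 100 Timp2 reads in GM, 32.2 ± 0.703 at 12 h, 44.9 ± 1.57 at 24 h, 42.1 ± 0.350 at 48 h, 43.3 ± 0.548 at 60 h and 34.2 ± 0.975 at 96 h. Its ratio lay above GM at 24, 48 and 60 h (exact p = 0.1 each) and overlapped GM at 12 h (exact p = 0.2) and at 96 h (exact p = 0.3), although both genes were near 2 times their GM level at 96 h.

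The ratio of the 2 inhibitors, chosen after its values were seen and given without a test, took another course. Timp1 had 33.1 ± 0.694 reads per 100 Timp2 reads in GM, 39.1 ± 1.59 at 12 h, 16.6 ± 0.665 at 24 h, 17.9 ± 0.639 at 48 h, 31.8 ± 0.386 at 60 h and 9.88 ± 0.241 at 96 h. The libraries of 96 h, at 9.66 to 10.1, were the lowest of all. Mmp13 had 0.0429 ± 0.0113 reads per 100 Timp1 reads in GM, 0.0554 ± 0.0148 at 12 h, 0.153 ± 0.0530 at 24 h, 0.125 ± 0.0496 at 48 h, 0.0470 ± 0.0247 at 60 h and 0.420 ± 0.195 at 96 h. This ratio lay above GM at 24, 48 and 96 h (exact permutation test, p = 0.1 each), overlapped it at 12 h (exact p = 0.4) and 60 h (exact p = 1), and rests on the few Mmp13 reads given above.

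**Figure D3:**
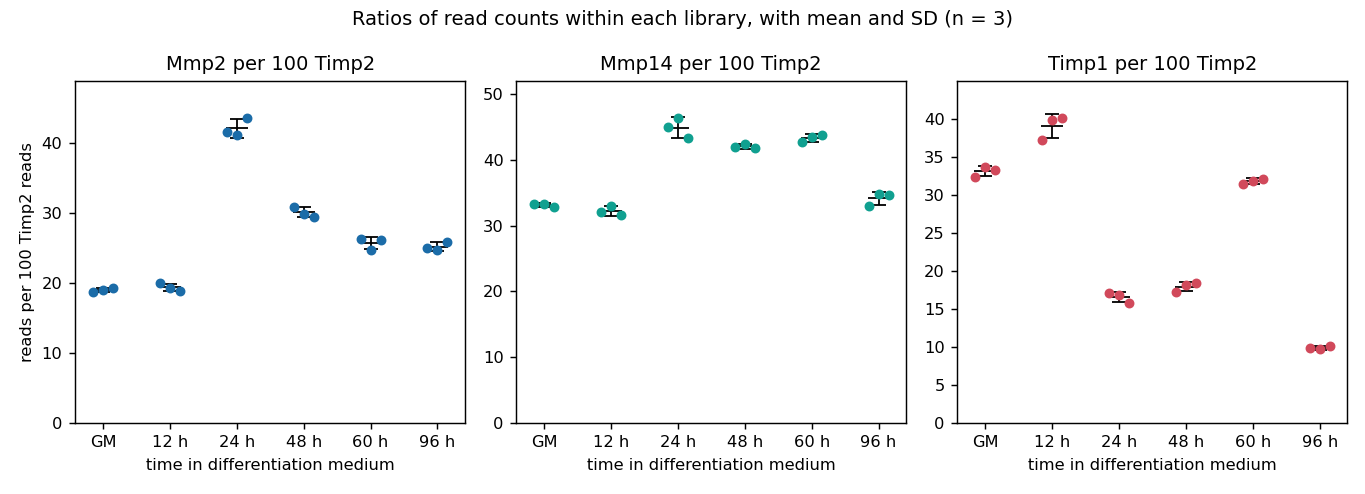
Reads of Mmp2 (left), Mmp14 (centre) and Timp1 (right) per 100 Timp2 reads in each library, by time in differentiation medium. Points are libraries and bars the mean and SD of 3. Mmp2 peaks at 42.2 at 24 h, Mmp14 stays between 42.1 and 44.9 from 24 to 60 h and is back at 34.2 at 96 h, and Timp1 ends at 9.88.

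Across the 18 libraries, the log2 levels of Mmp2 and Mmp14 had a Pearson r of 0.93, those of Mmp14 and Timp2 0.90 and those of Mmp2 and Timp2 0.79. Mmp2 and Timp1 had an r of -0.66, and Mmp10 and Timp2 an r of -0.65. These values describe libraries that share time points, and are given without a test. Among 9114 protein-coding genes of sufficient level, those most like each member by the same measure were Zcchc24 (0.99) and Mtss1 (0.98) for Mmp2, AC149090.1 (0.996) and Mxra8 (0.994) for Mmp14, Thbs2 (0.92) for Mmp10, Dpy19l1 (0.97) and Polr3k (0.96) for Timp1, Tbc1d1 (0.99) and Neurl1a (0.99) for Timp2, and Lpp (0.87) and Zyx (0.87) for Timp3. Thbs2, thrombospondin-2, is itself a matrix protein, and Lpp and Zyx encode proteins of focal adhesions.

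The rest of the enzyme family was compared with the members at 96 h against GM, where the median log2 fold change of all tested genes was 0.01 and that of the 6 tested members 0.41. Counts and directions of the lists below are those at 96 h unless another time is named. At 96 h, 68.8% of all tested genes were called against GM, 34.8% higher and 34.1% lower. The shares at other times are those given above with the counts of members. Of 18 other Mmp genes, 7 were tested, with 4 higher and 2 lower and a median of 0.14. Mmp3, stromelysin-1 and a neighbour of Mmp10 on chromosome 9, had 156 reads at 96 h and 1 in GM, a ratio of 158 (exact 95% interval 28.0 to 6286, counting error only). Mmp15, like Mmp14 a membrane-type enzyme, rose by 3.97 ± 0.12 on the log2 scale (adjusted p = 1.35e-17), and Mmp16, another membrane-type enzyme, fell by 1.34 (adjusted p = 7e-09). Mmp19 rose by 0.42 ± 0.09, and Mmp28 fell by 1.01. Of 4 other inhibitors, only Reck, a membrane-anchored inhibitor, was tested, with a log2 fold change of 0.08 that did not pass. Earlier, Reck had been called higher than GM at 48 h (0.67 ± 0.14, adjusted p = 0.000222) and at 60 h (0.42 ± 0.14, adjusted p = 0.0122). The call at 60 h was lost with the covariate, without the first GM library and without the third 60 h library.

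The related ADAM proteins are membrane-bound, and several of them shed surface proteins. Of 8 tested ADAM genes, 2 rose and 4 fell, with a median of -0.18. Adam19 rose by 1.61 ± 0.05, and Adam17, the sheddase of TNF that Timp3 inhibits, rose by 0.16 ± 0.04. Adam23 fell by 2.31, at a low level (0.861 CPM in GM and 0.168 CPM at 96 h), Adam8 by 2.18 and Adam15 by 0.47. Of the secreted ADAMTS proteases, 11 of 12 tested genes rose and Adamts10 fell (by 0.75), with a median of 1.62. Adamts8 had 63 reads at 96 h and none in GM, at least 21.3-fold higher against a floor of 3 reads over the GM group. Adamts15 rose by 4.63 ± 0.20 and Adamts4, an aggrecanase, by 3.92 ± 0.08.

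The plasminogen system, a serine protease cascade that activates several Mmp proenzymes, had 2 of 6 tested genes higher and 3 lower, with a median of -0.11. Earlier its median against GM had been 0.28 at 24 h (4 higher, 2 lower), 0.42 at 48 h (3 higher, 2 lower) and 0.39 at 60 h (3 higher, 2 lower). From 60 to 96 h all 6 were called lower, against 24.6% of all tested genes. Plat, which activates plasminogen, rose by 0.92 ± 0.04, and Serpine2, an inhibitor of such activators, rose by 0.78 ± 0.10. Plaur, the receptor of urokinase, fell by 3.59 and the plasminogen receptor Plgrkt by 0.18. Of the proprotein convertases, which cut the propeptide of Mmp14, Furin (0.32 ± 0.11, adjusted p = 0.012) and Pcsk6 (0.98 ± 0.23, adjusted p = 0.000822) rose among 3 tested, with a median of 0.32. Without the second GM library, without the second 96 h library or with the covariate, 1 of these 2 passed. Furin had been called lower than GM at 12 h (-0.42 ± 0.11, adjusted p = 0.00495) and at 60 h (-0.66 ± 0.11, adjusted p = 3.28e-05).

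Among 13 tested genes of a list of surface partners and uptake receptors of proteases and their inhibitors, 1 rose and 6 fell, with a median of -0.05. Tspan14, a tetraspanin, rose by 1.08 ± 0.05. The uptake receptor Lrp2 fell by 2.68, the integrin subunit Itgb3 by 0.97 and Cd44, the hyaluronan receptor, by 0.51. Earlier, Cd44 had been called higher than GM at 24, 48 and 60 h (0.51 ± 0.05 at 48 h, adjusted p = 3.66e-09) and Itgb3 at 24 h (0.37 ± 0.05, adjusted p = 6.18e-07), and at 60 h the list had 6 genes higher and 5 lower. Of the matrix substrates, 12 of 15 tested genes rose and 2 fell, with a median of 0.67. The proteoglycan decorin (Dcn) rose by 3.94 ± 0.07, the muscle laminin chain Lama2 by 1.75 ± 0.07 and the collagen I chain Col1a1 by 1.18 ± 0.10, while the laminin chains Lamb1 and Lamc1 fell by 0.63 and 0.47. Of 13 AP-1, ETS and related factors, 4 rose and 6 fell, with a median of -0.02. Fos rose by 1.10 ± 0.17, Fosl2 by 0.61 ± 0.04 and Jun by 0.49 ± 0.06, while Fosl1, another AP-1 subunit, fell by 4.13, the PEA3 factor Etv4 by 2.56 and Elk3 by 1.00.

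**Figure D4:**
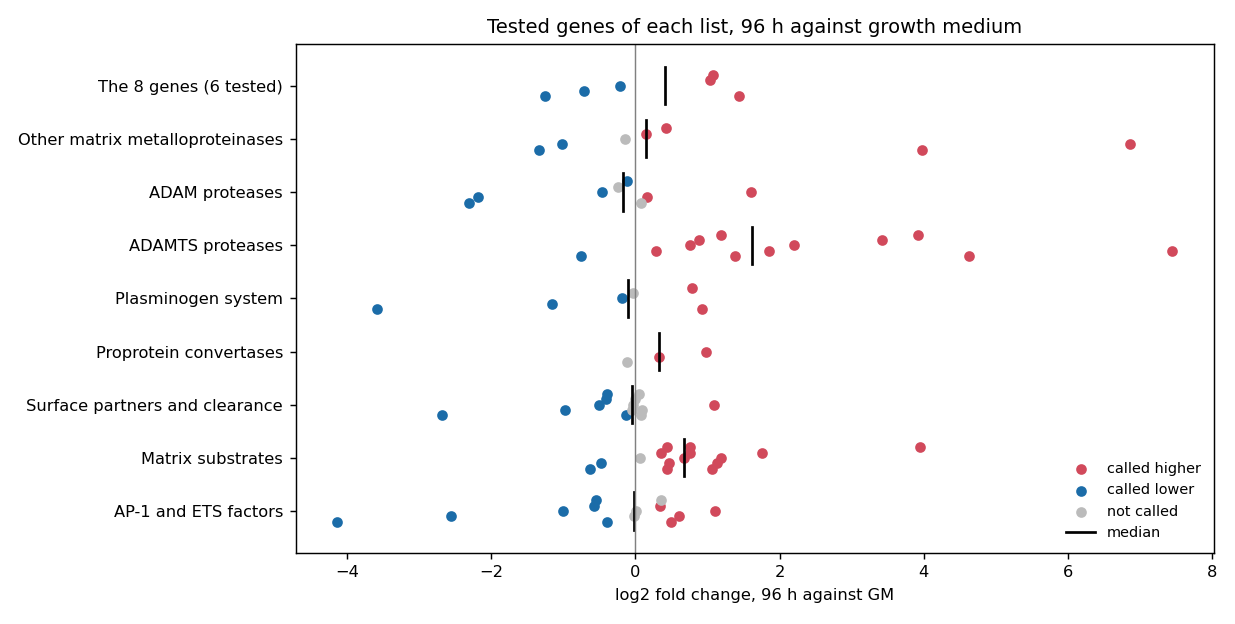
Log2 fold change at 96 h against GM of the tested genes in each list (points; vertical offsets only separate them), with called genes in colour and the list's median as a black bar. The fitted values of Mmp3 and Adamts8, far right, depend on a prior count, since GM had 1 read and none. ADAMTS proteases (median 1.62) and matrix substrates (median 0.67) lie mostly to the right, and the 6 tested members divide into 3 higher and 3 lower.

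Chromatin accessibility at the 8 genes was read from 1 deposited peak list per condition, and no test between conditions was run on these lists. A peak lay in the promoter window, from 2000 bases before to 500 bases after the gene start, of all 8 genes in both lists. For comparison, 60.1% (GM) and 60.4% (60 h) of 27025 promoters had one, and 94.2% and 94.4% of the promoters of 10066 genes that passed the count filter. Mmp9, with 6 reads in the whole series, thus had a promoter peak in both lists, with the authors' fold enrichment at 2.61 in GM and 2.64 at 60 h. For Mmp2 and Mmp9 the table used gives no strand, and the end with the lower coordinate was taken as the start. Promoters and gene bodies together held 51 peaks in GM, of which 7 overlapped no peak of the 60 h list, and 50 peaks at 60 h, of which 5 overlapped none of the GM list. The share of such peaks over the whole lists (181622 peaks in GM and 189516 at 60 h) was not computed. Whether these counts are many or few for this series therefore cannot be said.

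The peaks at the chromosome 9 genes had lower fold enrichments in the 60 h list than in the GM list. At the start of Mmp10 the authors' fold was 4.27 in GM and 2.87 at 60 h, and at a peak 7347 bases after the start, near the end of the gene, it was 8.10 and 2.76. In their own lists these last values stand at the 93.3 and 53.3 percentile. At the start of Mmp13 the fold was 5.54 and 2.93 (percentiles 79.8 and 56.5), and both peaks cover the AP-1 match printed above. A stronger peak upstream of Mmp13, which begins at position -2460 from its start in GM, had a fold of 10.4 in GM and 8.82 at 60 h, at percentiles 98.3 and 98.0. The median fold over all peaks was also lower in the 60 h list (2.59) than in GM (2.88), and the difference at these genes was not tested.

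At the other promoters the 2 lists were closer. The fold was 4.41 in GM and 4.12 at 60 h for Mmp2, 3.02 and 2.77 for Mmp14, 5.62 and 4.69 for Timp2 and 2.99 and 2.95 for Timp3. Timp1, whose RNA was higher at 60 h than in GM, was with Mmp9 the exception in direction, with a fold of 4.06 in GM and 4.55 at 60 h.

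**Figure D5:**
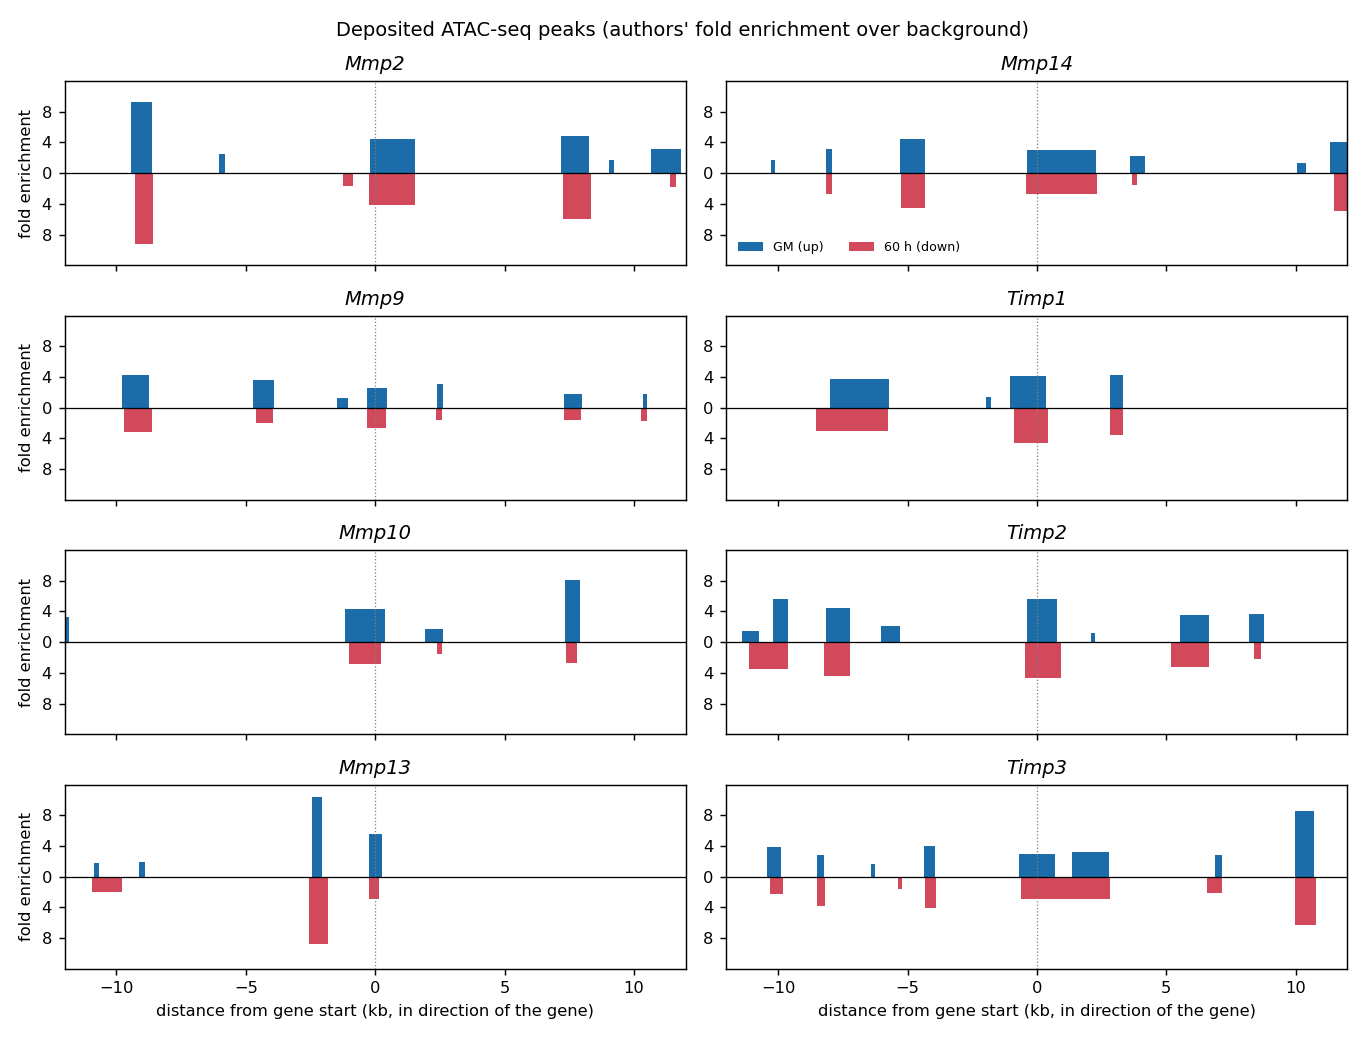
Deposited ATAC-seq peaks within 12 kb of each gene start, by distance in kb in the direction of the gene, with bar height the authors' fold enrichment (GM upwards, 60 h downwards, linear axis). Bars are as wide as the peaks, and each list covers 2 libraries. The peak near the end of Mmp10 stands at 8.10 in GM and 2.76 at 60 h, and all 8 genes have a peak in the promoter window in both lists.

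In the Hi-C files, topologically associating domains (stretches of chromosome whose parts contact each other more than their surroundings) were called on 40 kb bins, 1 set per condition. The 10 Mmp genes of chromosome 9 lay in 1 domain of 1400 kb in both sets, from 6880001 to 8280000 in GM and from 6920001 to 8320000 at 60 h. Of these 10 genes, 8 had counts and 2 (Mmp3 and Mmp10) were tested. The start of Timp2 lay 4.6 kb from a boundary in GM and inside a boundary bin at 60 h. Timp1 lay in a domain of 1200 kb in GM and of 520 kb at 60 h, and Mmp14 in a domain of 840 kb in GM and in none listed at 60 h. Mmp2 (800 and 760 kb), Mmp9 (960 kb in both) and Timp3 (960 and 920 kb) kept their domains to within 1 bin.

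Deposited loops, with anchors of 25 kb, touched the starts of 7 of the 8 genes, and none touched that of Mmp10. The share of all gene starts touched by a loop was not computed. Whether 7 of 8 is many or few for this series therefore cannot be said. Mmp2 and Timp2 had 5 each. For Mmp2, 4 were listed in GM alone and 1, to the bin of Slc6a2, at 60 h alone. For Timp2, 3 were listed in GM alone, 1 at 60 h alone and 1, over 500 kb to the bin of Birc5, Tmem235 and Tha1, in both. That was the 1 loop of the members listed in both conditions, where 11.2% of all loops in the table were, 51.1% being listed in GM alone and 37.7% at 60 h alone. Timp3 and Mmp13 had 2 loops each, and Mmp9, Mmp14 and Timp1 had 1 each. The Timp1 loop, listed at 60 h alone, led over 75 kb to the bin of Cfp and Elk1. The table gives no count or p-value for a loop, so these differences were not tested.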

How the data were processed

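The study measured RNA in 18 libraries, open chromatin in 4 and chromosome contacts in 6. For RNA, the authors deposited unscaled integer counts of reads for each gene. Tools named in the submitters' processing notes are STAR, RSEM 1.3.0 and DESeq2 for RNA, Bowtie2 2.2.6, MACS2 2.2.7, SAMtools 1.9 and deepTools 2.5.2 for ATAC-seq, and build mm10. The sources used here do not say how RSEM, which estimates counts, led to integers. In the deposited ATAC-seq peak lists, each peak has a fold enrichment (a ratio), and a −log10 q value by the authors. These were used only to describe peaks within a list, and the sources used here do not say whether calls pooled the 2 libraries. The deposited domain boundaries carry a score of unstated scale, which was not used for a comparison. Groups and times follow the sample titles, because the last time point in the protocol text varies between samples.

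One edgeR 4.0.16 fit (R 4.3.3) held the 18 RNA libraries (filterByExpr, TMM, quasi-likelihood test, group as the factor, 12 residual degrees of freedom). Contrasts were each time against GM and each step, with the Benjamini-Hochberg adjustment over all 15303 genes of a contrast. SE was computed as the absolute log2 fold change over the root of F. Replicates of a group differed beyond sampling noise, with a chi-square of 5.06 to 53.2 for each degree of freedom, and each library counted as 1 sample. Depth leaves genes of a few reads per library without a test, and intervals and floors cover counting error only. Alternatives were other scalings, filters, DESeq2 1.42.0, the 2 groups alone, a replicate block, each library left out, and a covariate, the mean level of 33 genes that stood at least 0.5 (log2) above both other 24 h libraries in the third, with no member among them. For peaks, they were a stricter q value, a larger overlap than 1 base and a narrower window.

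The members and lists were chosen with earlier results of these data known. Named genes were the members, in each list up to 3 called genes each way with the largest changes at 96 h, and for each tested member the 2 protein-coding genes of mean log2 CPM of at least 3 with the highest Pearson r. A gene this rule names for Mmp10 and another in a list are not reported here. Shared peaks are those that overlap. Signal tracks were not used here.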

Additional observations from a re-analysis of the deposited data

How the results depend on the processing

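Of 54 log2 fold changes of members (6 genes in 9 contrasts), 46 kept their side of the threshold under all alternatives. None of the 1404 alternative values reversed a called direction. Some changes near 0 that were not called did change sign, such as Mmp2 at 12 h against GM (-0.01 in the fit reported, up to 0.10 in an alternative). With the covariate, the members called went from 2 to 1 at 12 h against GM, from 4 to 2 at 60 h against 48 h, and from 5 to 3 at 96 h against 60 h, and the genes called over the whole table went from 5353 to 2510, from 4157 to 1839 and from 7224 to 2544. Without the first 48 h library, the genes called at 60 h against 48 h went to 2629. That contrast had 2425 genes higher and 1732 lower with TMM, and 1787 higher and 2152 lower with upper-quartile scaling. Without a filter, 7 members were called at 96 h against GM. At 48 h against GM, Mmp10 missed the threshold in the fit reported and passed it with RLE scaling (0.56, adjusted p = 0.0499), upper-quartile scaling (0.58, adjusted p = 0.0424), the CPM filter (0.57, adjusted p = 0.0425) and the replicate block (0.55, adjusted p = 0.0342). The replicate block changed no other call of a member. Same-numbered libraries were not found to pair: 9 of 45 same-numbered pairs had deviations correlated over 0.1 (median -0.03), and in 9 of 45 comparisons a library correlated best with its own number. With peaks of −log10 q of at least 5 in both lists, 4 of 38 GM peaks overlapped no 60 h peak, instead of 7 of 51. At 60 h, 4 of 39 overlapped no GM peak, instead of 5 of 50. Depth limits Mmp9, Mmp13 and, in part, Mmp10.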
